A study of Mus musculus with 20 samples.

Results

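The cytochrome P450 genes were followed in RNA-seq of mouse ileum and of bone marrow-derived macrophages, each from Gpr35-/- and Gpr35+/+ mice. Members were all rows of both deposited tables whose gene name starts with Cyp, then a family number, a subfamily letter and a gene number, which left out Cyp51. This gave 100 of 23361 rows in each table, and they belong to 39 subfamilies of 16 families. The rule used names only and no measured value. There were 20 libraries in 4 groups of 5: untreated Gpr35+/+ ileum, untreated Gpr35-/- ileum, untreated Gpr35+/+ macrophages and untreated Gpr35-/- macrophages. GPR35 is a cell-surface receptor without an agreed ligand, and the comparison asks how its loss alters the transcriptome of both sources. Mice were aged 6 to 12 weeks, and controls were littermates from heterozygous breeding. The Gpr35-/- allele was a whole-body deletion from a single knockout-repository clone. The strain was C57BL/6. The ileum libraries came from 5 mice per genotype, while for macrophages the sources used here do not say whether each library was a separate animal or culture, so p-values there describe spread among libraries that may be technical repeats.

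Values are FPKM (fragments mapped to a gene, scaled to its transcript length and to the size of the library) and can be compared between genes of 1 table. Gpr35 itself stood in ileum at 2.98 ± 0.51 FPKM with the gene intact (mean ± SD, n = 5) and 0.029 ± 0.014 FPKM without it. In macrophages it stood at 2.82 ± 0.35 and 0.116 ± 0.015 FPKM, so every library matched its label. The ileum libraries carried enterocyte markers (summed 18986 to 41384 FPKM) and goblet cell markers (16628 to 25494 FPKM), and the macrophage libraries carried macrophage markers (3128 to 3564 FPKM). An exact 0 in these tables may be a failed estimate, because Fabp2 and Anpep in ileum and Lyz2 in macrophages, which these sources are known to express strongly, are listed at 0 in all 10 libraries. A P450 gene at exactly 0 is therefore described below as listed at 0.

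Cytochrome P450 enzymes are heme proteins that insert 1 atom of oxygen into their substrate, with electrons handed over by P450 oxidoreductase or, in mitochondria, by ferredoxin. In the intestine, enzymes of the Cyp2 and Cyp3 families are known as the barrier that oxidizes drugs and food-derived compounds before they reach the blood. Members of the Cyp4 family hydroxylate fatty acids and leukotrienes, and other families make or degrade bile acids, oxysterols, steroid hormones, vitamin D and retinoic acid. Many P450 genes lie in tandem clusters of close relatives, so 50-base reads from 1 gene can also fit its neighbour.

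The sequence around the cysteine that holds the heme iron shows how close these relatives are, which bears on how far the values below can be assigned to 1 gene. A stretch of 30 coding bases, 10 codons, with 4 codons fixed, was found in frame in 88 of 96 members with a GENCODE M21 transcript. In the lines that follow, capitals mark the fixed codons (phenylalanine, glycine, the heme-binding cysteine and glycine) and coordinates are GRCm38. Where the given span is longer than the stretch, an intron splits it. The lines cover the expressed Cyp3a, Cyp2c and Cyp2d enzymes and 3 Cyp4 enzymes for contrast.
Cyp3a11 (chr5:145858805-145858834, minus strand): TTTgggaatGGAcccaggaacTGCcttGGC
Cyp3a25 (chr5:145981468-145981497, minus strand): TTTggaaatGGAcccaggaacTGCataGGC
Cyp3a13 (chr5:137895267-137895296, minus strand): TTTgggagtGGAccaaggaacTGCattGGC
Cyp3a44 (chr5:145778005-145778034, minus strand): TTTggaattGGAcccaggaacTGCattGGC
Cyp2c65 (chr19:39090760-39093342, plus strand): TTCtcaacaGGAaaacggattTGTgtgGGA
Cyp2c66 (chr19:39183924-39186468, plus strand): TTCtcaacaGGAaaacggattTGTgtgGGA
Cyp2c68 (chr19:39689234-39699270, minus strand): TTCtcagcaGGAaaacggattTGTgtgGGA
Cyp2c55 (chr19:39038232-39042036, plus strand): TTCtcaataGGAaagcgaatgTGCgtgGGA
Cyp2d22 (chr15:82371706-82371831, minus strand): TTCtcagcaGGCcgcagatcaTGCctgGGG
Cyp2d26 (chr15:82790336-82790465, minus strand): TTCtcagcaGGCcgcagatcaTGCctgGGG
Cyp4f14 (chr17:32905666-32906065, minus strand): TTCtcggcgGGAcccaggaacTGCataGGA
Cyp4f18 (chr8:71988725-71989076, minus strand): TTCtcggctGGGcccaggaacTGCataGGA
Cyp4v3 (chr8:45307107-45308407, minus strand): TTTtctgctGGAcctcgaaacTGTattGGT
Among the 20 members with at least 1 FPKM in either source that carry the stretch, pairs of 1 subfamily matched at 24 to 30 of the 30 bases (median 27, 23 pairs). Pairs of different subfamilies matched at 12 to 26 bases (median 17, 167 pairs). Cyp2c65 and Cyp2c66 were identical here, as were Cyp2d22 and Cyp2d26.

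Over whole transcripts the overlap was smaller but uneven. Of all distinct 50-base stretches of Cyp2c68, 43.3% also occurred in another P450 gene, chiefly Cyp2c40. Its relatives shared more, with 60.3% for Cyp2c40, 54.3% for Cyp2c69 and 52.8% for Cyp2c67. The share was 26.8% for Cyp3a25 (chiefly Cyp3a59), 20.2% for Cyp2c65 and 19.5% for Cyp2c66 (each with the other), and 9.49% for Cyp2d26. For Cyp3a44, 26.5% of stretches recurred in a P450 or other gene. By contrast, Cyp4f14 shared 2.39% with another P450, and Cyp3a13, Cyp27a1, Cyp4v3 and Cyp2s1 shared none with another P450. With genes of any kind, Cyp4f16 shared 17.4%, Cyp4b1 8.26% and Cyp4v3 7.02%. How reads that fit several places were counted is not given in the sources used here. The values of Cyp2c65, Cyp2c66, Cyp2c68, Cyp3a25, Cyp3a44 and Cyp4f16 are therefore uncertain to that degree, as are the low values of Cyp2c40, Cyp2c67 and Cyp2c69.

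**Figure D1:**
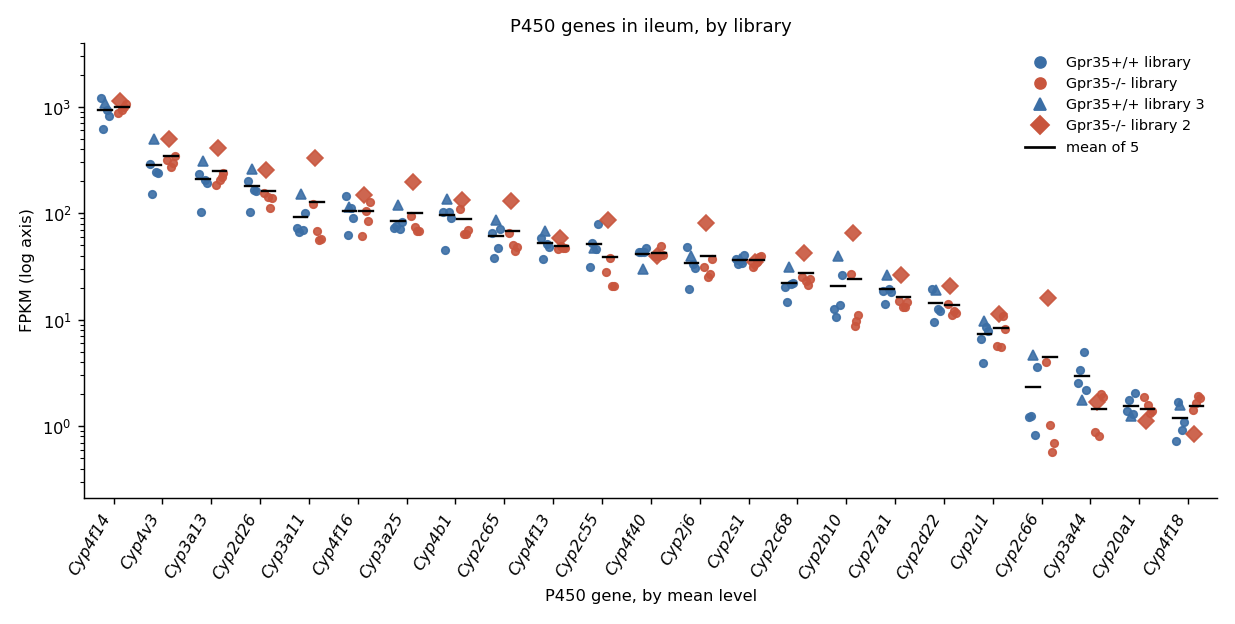
FPKM in each of the 10 ileum libraries for the P450 genes with a mean of at least 1 FPKM, on a log axis, 1 point per library, coloured by genotype, with diamonds for Gpr35-/- library 2, triangles for Gpr35+/+ library 3 and bars for the mean of 5. Cyp4f14 lies highest, at 623 to 1203 FPKM, and the genotypes overlap in every gene drawn.

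In ileum, 23 of the 100 genes had a mean of at least 1 FPKM, 18 had at least 10 FPKM and 6 had at least 100 FPKM. A further 20 were listed at 0 in all 10 libraries. Summed over the P450 genes, Gpr35+/+ ileum held 2357 ± 600 FPKM and Gpr35-/- ileum 2561 ± 659 FPKM (SD, n = 5). The sum ranged from 0.295 to 0.637% of all FPKM of a library. Expression was concentrated in few genes: Cyp4f14 alone made 39.3% of the sum, the highest 3 genes 61.5% and the highest 6 genes 77.1%.

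The fatty acid hydroxylases (families Cyp4a, Cyp4b, Cyp4f, Cyp4v and Cyp4x, 20 genes) contributed 64.0% of the ileal P450 sum, with 7 genes at 1 FPKM or more. Cyp4f14, a hydroxylase of leukotriene B4, measured 1203, 623, 1077, 924 and 823 FPKM in Gpr35+/+ libraries 1 to 5 and 883, 1135, 941, 991 and 1059 FPKM in Gpr35-/- libraries 1 to 5. The Gpr35-/- values all fell inside the Gpr35+/+ range. Cyp4v3, which hydroxylates medium-chain fatty acids, followed at 285 ± 131 and 346 ± 87.5 FPKM in Gpr35+/+ and Gpr35-/- ileum. Cyp4f16 averaged 105 ± 31.3 and 106 ± 34.3 FPKM, and Cyp4b1, known for activating protoxins, 95.4 ± 32.9 and 88.2 ± 32.0 FPKM. Cyp4f13 and Cyp4f40 were the steadier members of their subfamily, at 52.8 ± 11.3 and 49.7 ± 5.15 FPKM and at 41.4 ± 6.60 and 41.9 ± 4.37 FPKM. The Cyp4a genes, peroxisome proliferator-responsive hydroxylases of liver and kidney, had means up to 0.0366 FPKM, and Cyp4a12a, Cyp4a12b and Cyp4a14 were listed at 0.

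The xenobiotic and drug enzymes (35 genes of the Cyp1, Cyp2a, Cyp2b, Cyp2d, Cyp2e, Cyp3a and smaller subfamilies) contributed 26.1%, with 7 genes at 1 FPKM or more. Cyp3a13 led them, averaging 209 ± 73.8 and 251 ± 91.6 FPKM for the Gpr35+/+ and Gpr35-/- libraries, ahead of Cyp2d26 with 179 ± 58.5 and 161 ± 54.45 FPKM. Cyp3a11, the main drug-inducible Cyp3a of mouse liver, and Cyp3a25 reached 92.7 ± 36.2 and 126 ± 116 FPKM and 84.2 ± 20.3 and 100 ± 54.4 FPKM. The large SD of Gpr35-/- Cyp3a11 came from 1 library at 328 FPKM beside 4 at 56.0 to 123 FPKM. Cyp2b10, the classical target of the receptor CAR, had 20.6 ± 12.3 and 24.4 ± 24.1 FPKM and ranged over libraries from 8.77 to 65.4 FPKM. The Ah receptor target Cyp1a1 stayed at 0.0317 to 0.640 FPKM, its highest value being Gpr35+/+ library 1, and Cyp1a2 was listed at 0.

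The epoxygenases of arachidonic acid (23 Cyp2c and Cyp2j genes) made 7.17% of the sum. Cyp2c65 led with 61.7 ± 19.7 and 67.5 ± 35.7 FPKM, genotypes in the same order, followed by Cyp2c55 with 51.1 ± 17.5 and 38.8 ± 27.3 FPKM. Cyp2j6 had 34.4 ± 10.8 and 40.1 ± 22.9 FPKM, and Cyp2c68 21.9 ± 5.86 and 27.2 ± 8.64 FPKM. Cyp2c66 was far below its near twin, at 2.31 ± 1.72 and 4.46 ± 6.60 FPKM, and had the widest spread of the 23 genes (CV over 10 libraries 138%). The liver genes Cyp2c37, Cyp2c50 and Cyp2c54 were listed at 0.

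The remaining roles were small. Of the enzymes with few known substrates, Cyp2s1, an epithelial P450, had 36.4 ± 2.86 and 36.0 ± 3.31 FPKM and the narrowest spread of the 23 genes (CV 8.08%), and Cyp2u1 had 7.30 ± 2.19 and 8.32 ± 2.72 FPKM. Among bile acid and oxysterol enzymes only the mitochondrial sterol 27-hydroxylase Cyp27a1 exceeded 1 FPKM, at 19.4 ± 4.55 and 16.4 ± 5.53 FPKM. Cyp7a1, the rate-limiting enzyme of bile acid synthesis, was listed at 0, and Cyp7b1 averaged 0.030 FPKM. No steroid hormone, retinoic acid or vitamin D enzyme had a mean of 1 FPKM. Cyp17a1, of androgen synthesis, came nearest at 0.955 FPKM, the vitamin D 25-hydroxylase Cyp2r1 had 0.431 FPKM and the retinoic acid hydroxylase Cyp26b1 0.0896 FPKM.

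Expressed genes were spread unevenly over the tandem clusters. The 9 Cyp2d genes span 424 kb of chromosome 15, and only the outermost members Cyp2d22 (14.2 FPKM over 10 libraries) and Cyp2d26 (169.8 FPKM) exceeded 1 FPKM, while the 7 between them had means up to 0.347 FPKM. In the 1180 kb Cyp2c cluster of chromosome 19, Cyp2c55, Cyp2c65, Cyp2c66 and Cyp2c68 exceeded 1 FPKM out of 15. On either side of Cyp2c68 (24.5 FPKM) lie Cyp2c67 with 0.0768 FPKM and Cyp2c40 with 0.0029 FPKM, and Cyp2c69, beyond Cyp2c40, had 0.0026 FPKM. In the Cyp3a cluster of chromosome 5 (7 genes, 768 kb), neighbours Cyp3a44, Cyp3a11 and Cyp3a25 exceeded 1 FPKM. Cyp4f14 held 82.9% of the summed level of the 8 chromosome 17 Cyp4f genes, Cyp2j6 98.2% of the 7 Cyp2j genes and Cyp4b1 99.9% of the 8 Cyp4a, Cyp4b and Cyp4x genes of chromosome 4.

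The contrast between neighbours is shown with 120 bases of RefSeq sequence before each start (GRCm38.p6). Cyp2c68 and Cyp2c65 are set beside relatives with lower values. How reads that fit several of these relatives were assigned is not known. Capitals mark CAAAGTCCA, a form of the site bound by the hepatocyte nuclear factor HNF4, and the last 2 lines, Cyp4v3 and Cyp20a1, hold the most CG among the 8 genes with at least 1 FPKM in both sources.
Cyp2c68 (chr19:39741102-39741221, minus strand): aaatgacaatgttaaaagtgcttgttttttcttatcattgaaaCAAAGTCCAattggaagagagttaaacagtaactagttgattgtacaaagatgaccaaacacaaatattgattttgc
Cyp2c40 (chr19:39812815-39812934, minus strand): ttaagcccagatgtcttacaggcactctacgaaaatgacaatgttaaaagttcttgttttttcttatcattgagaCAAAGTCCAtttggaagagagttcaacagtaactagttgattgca
Cyp2c69 (chr19:39886770-39886889, minus strand): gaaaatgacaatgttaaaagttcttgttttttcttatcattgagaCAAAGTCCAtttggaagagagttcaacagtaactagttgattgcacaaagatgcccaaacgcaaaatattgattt
Cyp2c65 (chr19:39060886-39061005, plus strand): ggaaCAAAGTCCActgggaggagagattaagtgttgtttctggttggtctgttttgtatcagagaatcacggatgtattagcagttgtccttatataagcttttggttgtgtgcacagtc
Cyp2c66 (chr19:39113778-39113897, plus strand): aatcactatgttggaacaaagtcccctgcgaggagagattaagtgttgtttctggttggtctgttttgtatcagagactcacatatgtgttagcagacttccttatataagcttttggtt
Cyp4v3 (chr8:45333164-45333283, minus strand): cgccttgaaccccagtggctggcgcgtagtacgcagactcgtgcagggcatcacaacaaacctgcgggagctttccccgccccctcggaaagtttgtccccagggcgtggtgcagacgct
Cyp20a1 (chr1:60343180-60343299, plus strand): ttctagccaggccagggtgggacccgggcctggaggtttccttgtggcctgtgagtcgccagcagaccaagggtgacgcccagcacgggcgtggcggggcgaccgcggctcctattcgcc
Aligned, the windows of Cyp2c68 and Cyp2c69 matched at 105 of 118 bases, those of Cyp2c68 and Cyp2c40 at 83 of 88, and those of Cyp2c65 and Cyp2c66 at 99 of 108. CAAAGTCCA, searched on both strands in the 250 bases before the start, was present in Cyp2c68, Cyp2c40 and Cyp2c69 alike, and in Cyp2c65 but not in Cyp2c66. Over all P450 genes with a RefSeq promoter it was found in 10 of 72 (13.9%), beside 0.381% of all 27025 promoters. Among members under 1 FPKM in both sources it was found in 7 of 51 (13.7%). All of the 10 but Cyp8b1 are Cyp2c or Cyp3a relatives, and the windows of Cyp2c40 and Cyp2c69 matched at 90 of 90 bases. Close relatives are therefore not independent in such promoter counts. Of those 10 genes, Cyp2c65, Cyp2c68 and Cyp3a11 had at least 1 FPKM in ileum. The TATA box TATAAA was present in 27 of the 72 (37.5%), beside 13.0% of all promoters, and in none of the 8 genes with at least 1 FPKM in both sources. The window of Cyp4v3 held 17 CG dinucleotides in 250 bases and that of Cyp20a1 held 15, against a median of 3 over those 8 genes, 2 over the 72 and 6 over all promoters. The other 6 of the 8 held 2 to 7. The 8 include Cyp4f14, whose macrophage mean of 1.26 FPKM was only 0.131% of its ileum mean. These matches describe letters in a window and are not evidence of binding.

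**Figure D2:**
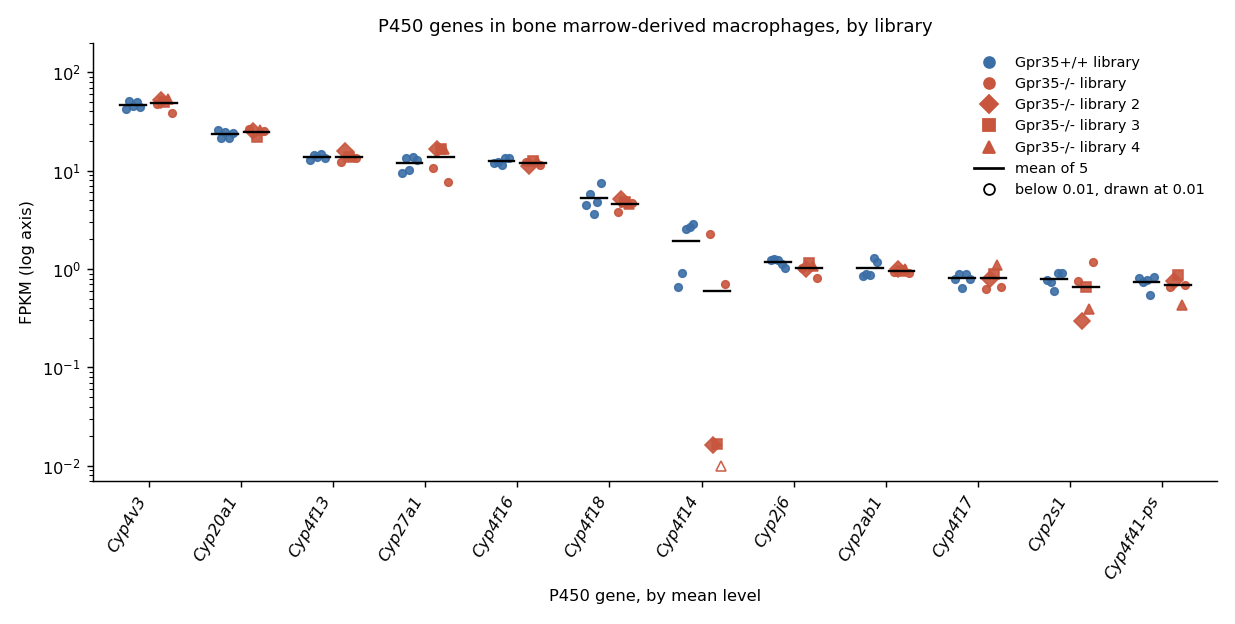
FPKM in each of the 10 macrophage libraries for the P450 genes tested there, on a log axis, 1 point per library, coloured by genotype, with larger symbols for Gpr35-/- libraries 2, 3 and 4, bars for the mean of 5 and an open symbol at 0.01 for a value below it. Cyp4v3, Cyp20a1, Cyp4f13, Cyp27a1 and Cyp4f16 form the upper set above 7 FPKM, and Cyp4f14 spreads from 0 to 2.85 FPKM.

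Macrophages expressed a smaller set at a lower level. The P450 sum was 123.2 ± 6.2 FPKM in Gpr35+/+ and 124.0 ± 9.9 FPKM in Gpr35-/- macrophages (SD, n = 5), or 0.0216 to 0.0273% of all FPKM of a library. Of the 100 genes, 8 had a mean of at least 1 FPKM, 5 had at least 10 FPKM and 51 were listed at 0 in all 10 libraries. Fatty acid hydroxylases made 65.9% of the sum. Cyp4v3 alone made 38.4%, with 46.6 ± 3.45 and 48.3 ± 6.02 FPKM, and Cyp4f13 and Cyp4f16 had 13.8 ± 0.80 and 13.9 ± 1.29 FPKM and 12.5 ± 0.86 and 11.97 ± 0.63 FPKM. Cyp4f18, the leukotriene B4 hydroxylase of myeloid cells, had 5.23 ± 1.48 and 4.63 ± 0.49 FPKM.

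Cyp20a1, a P450 with no assigned substrate, came next after Cyp4v3, at 23.3 ± 1.98 and 25.0 ± 1.75 FPKM. Cyp27a1, which makes 27-hydroxycholesterol from cholesterol, had 11.97 ± 1.96 and 13.6 ± 4.18 FPKM and supplied nearly all of the 10.5% held by bile acid and oxysterol enzymes. No xenobiotic enzyme reached 1 FPKM as a mean over all 10 libraries. The closest was Cyp2ab1 at 0.989 FPKM, with 1.01 ± 0.20 and 0.963 ± 0.039 FPKM by genotype.

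**Figure D3:**
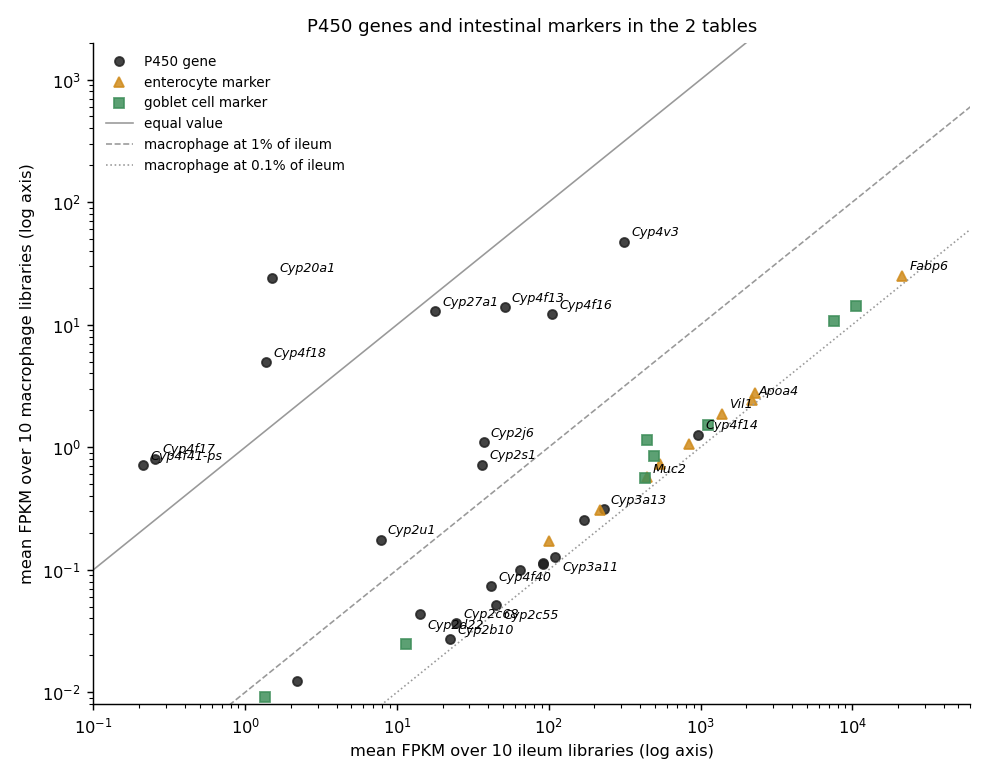
Mean FPKM over 10 ileum libraries (horizontal, log axis) against mean FPKM over 10 macrophage libraries (vertical, log axis) for P450 genes and for enterocyte and goblet cell markers, 1 point per gene, with lines at equal value and at 1% and 0.1% of ileum (genes with a mean near 0 in either, such as Cyp2ab1 and Cyp2c66, lie outside the axes). A band of 11 P450 genes lies with the markers at 0.116 to 0.176% of the ileum level, while Cyp20a1 and Cyp4f18 lie higher in macrophages.

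The tables were scaled separately, so levels of the 2 sources are set side by side without a test. Of the 23 genes at 1 FPKM or more in ileum, 8 were also at 1 FPKM or more in macrophages and 15 were not. In macrophages only, 0 genes reached 1 FPKM. The 8 include Cyp4f14, whose macrophage mean of 1.26 FPKM was 0.131% of its ileum mean. It had 0.0164, 0.0167 and 0 FPKM in Gpr35-/- macrophage libraries 2, 3 and 4. Cyp20a1 had 1.51 FPKM in ileum and 24.2 FPKM in macrophages, and Cyp4f18 1.37 and 4.93 FPKM. Cyp2ab1 had 0.0018 FPKM in ileum beside 0.989 FPKM in macrophages, and Cyp4f17 0.255 beside 0.806 FPKM. In the other direction, the macrophage mean was 71.5% of the ileum mean for Cyp27a1, 27.0% for Cyp4f13, 15.05% for Cyp4v3, 11.6% for Cyp4f16, 2.95% for Cyp2j6 and 1.99% for Cyp2s1.

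Of the 18 genes with at least 10 FPKM in ileum, 11 had a macrophage mean under 0.2% of it, a cut set after the values were seen. Cyp2c55, Cyp3a11, Cyp2b10, Cyp4b1, Cyp3a25, Cyp4f14, Cyp3a13, Cyp2c68, Cyp2d26, Cyp2c65 and Cyp4f40 lay between 0.116 and 0.176% (median 0.131%), and Cyp2d22 came next at 0.306%. The 9 enterocyte markers measured in both lay between 0.111 and 0.170% (median 0.130%) and 7 goblet cell markers between 0.129 and 0.258%. Summed over the 11 genes, macrophage libraries 1 to 5 held 1.38, 1.72, 4.95, 4.65 and 5.63 FPKM in Gpr35+/+ and 4.52, 0.0274, 0.0612, 0.0373 and 1.73 FPKM in Gpr35-/-. Vil1, an enterocyte brush border gene, had 1.25, 1.16, 3.64, 4.502 and 3.61 FPKM and 2.91, 0.0517, 0.0210, 0.0484 and 1.56 FPKM in the same libraries. Gpr35-/- macrophage libraries 2, 3 and 4 were thus lowest for both. The remaining 7 P450 genes at 1 FPKM or more summed to between 101.5 and 127.7 FPKM in every macrophage library.

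**Figure D4:**
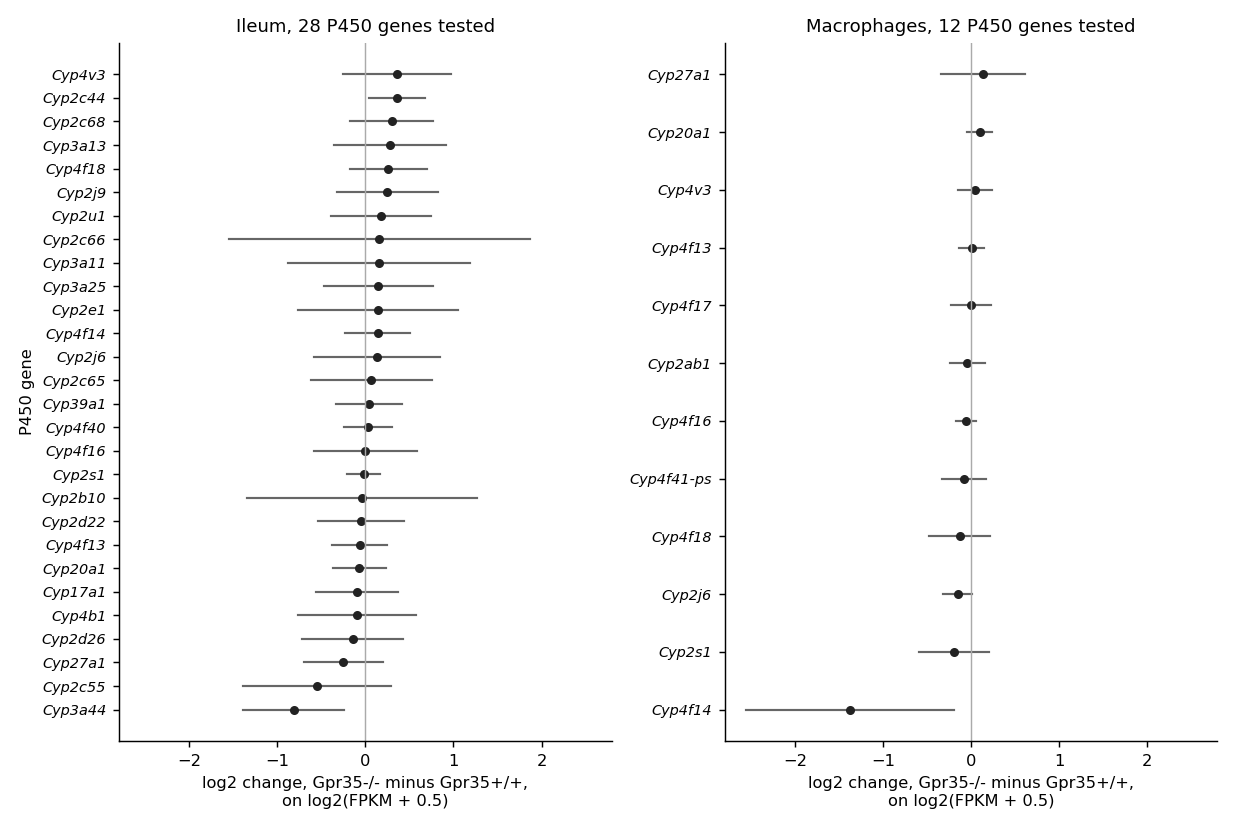
Log2 change of Gpr35-/- against Gpr35+/+ on the log2(FPKM + 0.5) scale with its 95% interval, for the P450 genes tested in ileum and in macrophages. Cyp3a44 in ileum and Cyp4f14 in macrophages lie farthest below 0, and no gene passed the adjusted threshold.

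Loss of Gpr35 was not accompanied by a change in any P450 gene that passed the test, in either source. Genes that reached 0.5 FPKM in 5 or more libraries of a table entered limma on log2(FPKM + 0.5), with p-values adjusted over all genes of that table. In ileum 28 members were tested, with 0 higher and 0 lower at adjusted p under 0.05, beside 0.0173% higher and 0.0259% lower of all 11574 genes. The background in either direction was 0.0432%. At an unadjusted p under 0.05 there were 2 members, beside 4.34% of all genes, 1 of them higher (1.81% of all genes) and 1 lower (2.52%). In macrophages 12 members were tested with 0 higher and 0 lower, beside 0.0262% in each direction and 0.0525% in both together of all 11437 genes. There, 1 member had an unadjusted p under 0.05, a lower one, beside 10.5% of all genes (4.63% higher, 5.88% lower). In 0 members of either source were the genotypes without overlap, a pattern seen in 0.855% of genes in ileum (0.406% higher, 0.449% lower) and 1.96% in macrophages (1.04% and 0.918%). Estimates lay above 0 for 16 of 28 members in ileum, beside 54.4% of all genes, and for 5 of 12 in macrophages, beside 51.7%. In such bulk libraries fewer cells of a type and less RNA per cell cannot be told apart.

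The precision differed between genes. The median standard error of the log2 change was 0.26 for ileal P450 genes and 0.12 for all genes, and 0.096 and 0.061 in macrophages. For Cyp4f14 in ileum the change was 0.14 (95% interval -0.23 to 0.50), for Cyp4v3 0.36 (-0.25 to 0.97) and for Cyp3a13 0.28 (-0.35 to 0.92). These estimates moved with single libraries. Without Gpr35+/+ library 2 they were 0.0025, 0.16 and 0.051, and without Gpr35+/+ library 3 they were 0.20, 0.59 and 0.44. For Cyp2s1 the interval was narrow, -0.21 to 0.17, whereas for Cyp3a11 it ran from -0.88 to 1.18 and for Cyp2b10 from -1.35 to 1.27. A log2 change of 1 in either direction thus lies inside the interval of Cyp2b10.

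Cyp3a44, a Cyp3a enzyme with female-predominant expression in liver, had the smallest unadjusted p among the ileal members. It measured 2.57, 3.37, 1.75, 4.92 and 2.21 FPKM in Gpr35+/+ ileum and 0.872, 1.69, 0.804, 2.01 and 1.86 FPKM in Gpr35-/- ileum. Gpr35+/+ library 3 lay inside the Gpr35-/- range and the others above it. The log2 change was -0.82 (SE 0.26, adjusted p = 0.999 by limma). Its neighbours Cyp3a11 and Cyp3a25 had changes of 0.15 (SE 0.47) and 0.15 (SE 0.28). Cyp2c44, an epoxygenase outside the Cyp2c cluster, measured 0.556, 0.344, 0.550, 0.745 and 0.723 FPKM and 0.701, 0.967, 0.633, 0.974 and 1.18 FPKM, a change of 0.36 (SE 0.15, adjusted p = 0.999 by limma). Cyp2d40, below the filter and so not tested, had 0.862, 0.623, 0.135, 0.540 and 0.637 FPKM beside 0.199, 0.213, 0.121, 0.0915 and 0.0456 FPKM and was singled out after its values were seen. Its Gpr35-/- libraries were lower than all Gpr35+/+ libraries but number 3.

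In macrophages, Cyp4f14 measured 0.655, 0.906, 2.53, 2.67 and 2.85 FPKM in Gpr35+/+ and 2.27, 0.0164, 0.0167, 0 and 0.703 FPKM in Gpr35-/- libraries. The low values were those of Gpr35-/- libraries 2, 3 and 4, and libraries 1 and 5 lay inside the Gpr35+/+ range. The log2 change was -1.38 (SE 0.53, adjusted p = 0.409 by limma), and without those 3 libraries it was -0.27 (SE 0.53). They were left out after the data were seen, because they were lowest for Cyp4f14, so a smaller change follows from the choice. Only libraries 1 and 5 of Gpr35-/- remain in that fit. The intestinal markers moved with Cyp4f14. Of 9 enterocyte markers tested, 8 were lower in Gpr35-/- macrophages at an unadjusted limma p under 0.05, beside 5.88% of all genes. After adjustment 0 were, and the same held for 6 of 6 goblet cell markers. Summed enterocyte markers were 344 to 474 FPKM in Gpr35+/+ and 338 to 429 FPKM in Gpr35-/- macrophages, summed goblet markers 17.2 to 66.7 and 0.0409 to 45.8 FPKM, and Krt20 was listed at 0 in Gpr35-/- libraries 2, 3 and 4. The enterocyte sum includes Fabp2 and Anpep, which are listed at 0 in ileum. Among the enterocyte markers not at 0 in ileum, Fabp6 had the highest macrophage mean, 25.2 FPKM. Most of the enterocyte sum therefore comes from Fabp2 and Anpep, and the sum is not read as a measure of enterocyte RNA in macrophages. Without Gpr35-/- libraries 2, 3 and 4, 0 markers of either list had an unadjusted limma p under 0.05. Of all 11296 genes in that fit, 2.66% were higher and 3.63% lower by that measure. The libraries left out were also lowest for Vil1, Muc2, Apoa4, Krt20 and Fabp6, so fewer low markers follow from the choice. The part of these markers in the Cyp4f14 result was not tested.

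The other macrophage genes differed little. Cyp27a1 measured 9.56, 13.6, 10.2, 13.7 and 12.9 FPKM in Gpr35+/+ and 10.6, 16.6, 16.8, 16.4 and 7.74 FPKM in Gpr35-/- macrophages. Gpr35-/- libraries 2, 3 and 4 were here the highest of the 10, in contrast to Cyp4f14, and Gpr35-/- library 5 the lowest. The log2 change was 0.14 (SE 0.22, adjusted p = 0.905 by limma). Cyp2j6, an epoxygenase, measured 1.24, 1.27, 1.24, 1.13 and 1.03 FPKM and 1.03, 1.00, 1.15, 1.08 and 0.813 FPKM, a change of -0.15 (SE 0.076, adjusted p = 0.533 by limma). Cyp20a1 had a change of 0.10 (SE 0.065), Cyp4v3 of 0.04 (SE 0.088) and Cyp4f18 of -0.13 (SE 0.16).

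The genotype change was compared between sources in 1 fit over all 20 libraries, with 31 members tested and 0 passing in either direction, beside 0.0382% of 13079 genes (0.0229% higher in macrophages, 0.0153% lower). At an unadjusted p under 0.05 there were 4 members, 1 higher and 3 lower, beside 6.48% of genes (2.72% and 3.75%). Estimates lay above 0 for 7 of the 31, beside 45.5% of genes. Members entered this fit at 0.5 FPKM in any 5 of the 20 libraries, and only 12 were tested in macrophages alone. Many therefore sit near 0 in macrophages, so the 7 of 31 is not read as a result about P450 genes. The macrophage change minus the ileum change was 0.80 (SE 0.28) for Cyp3a44 and -1.51 (SE 0.59) for Cyp4f14, with adjusted p = 0.618 and 0.653 by limma. It was -0.95 (SE 0.38) for Cyp3a13 and -0.36 (SE 0.15) for Cyp2c44. Cyp3a44 and Cyp2c44 are near 0 in macrophages, so their values reflect the ileum. Cyp3a13 is also low there, with a mean of 0.313 FPKM and 0.0109, 0.0222 and 0.0128 FPKM in Gpr35-/- libraries 2, 3 and 4.

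**Figure D5:**
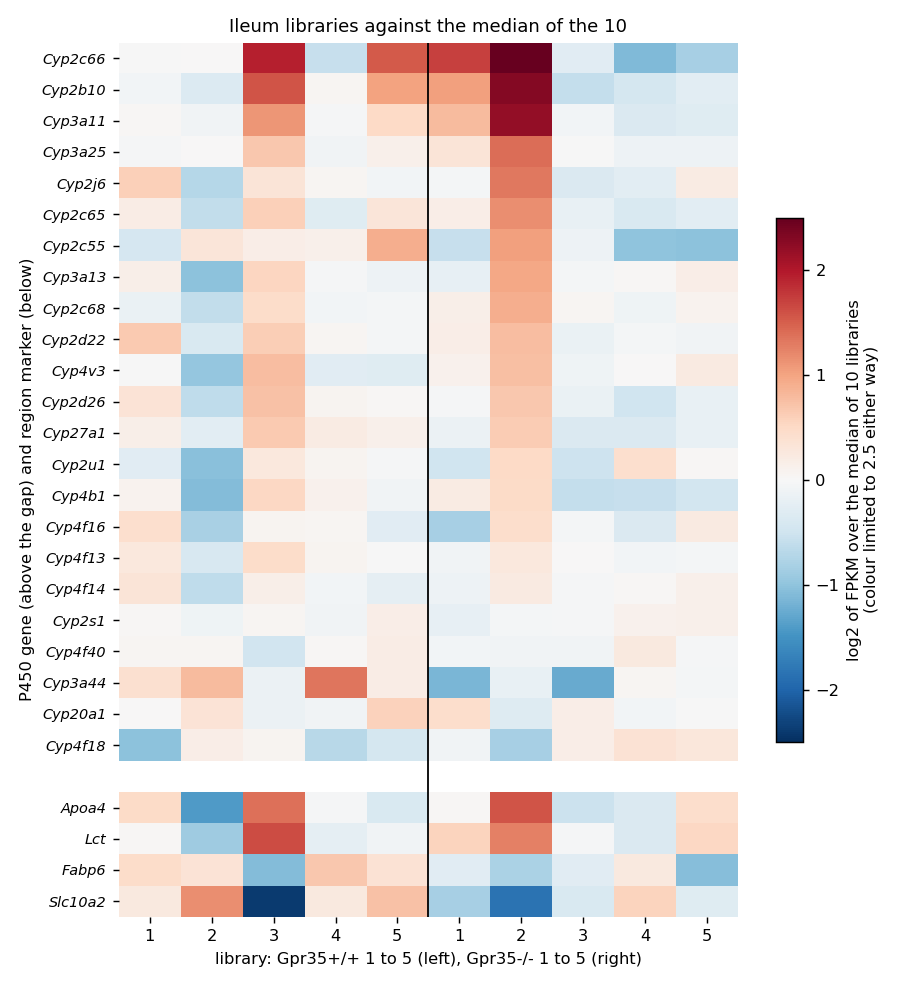
Level of each ileal P450 gene in each of the 10 ileum libraries relative to the gene's median over them, on a log2 colour scale, with markers of proximal and distal small intestine below. Gpr35-/- library 2 stands highest for 12 of 23 genes and Gpr35+/+ library 2 lowest for 11.

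P450 levels varied widely between ileum libraries of the same genotype. The median CV over 10 libraries was 31.9% for the 23 P450 genes at 1 FPKM or more and 13.7% for the 10415 genes at that level. Gpr35-/- library 2 was highest for 12 of the 23, beside 14.3% of all genes. Gpr35+/+ library 3 was highest for 5 (beside 11.5%), and Gpr35+/+ library 2 lowest for 11 (beside 29.5%). The excess of Gpr35-/- library 2 over the median of the other 9 was largest for Cyp2c66 (13.1-fold), Cyp2b10 (5.14-fold) and Cyp3a11 (4.69-fold). It was 2.64-fold for Cyp3a25, 2.57-fold for Cyp2c65 and Cyp2j6, and 2.24-fold for Cyp2c55.

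The values of Cyp3a11 were 73.0, 67.2, 153, 69.8 and 101 FPKM in Gpr35+/+ and 123, 328, 68.2, 56.0 and 57.6 FPKM in Gpr35-/- libraries. Those of Cyp2b10 were 12.7, 10.5, 39.5, 13.8 and 26.5 FPKM and 26.8, 65.4, 8.77, 9.75 and 10.99 FPKM, and those of Cyp2c66 were 1.22, 1.24, 4.71, 0.825 and 3.57 FPKM and 4.01, 16.0, 1.02, 0.576 and 0.688 FPKM. All 3 genes were high in Gpr35-/- libraries 2 and 1 and Gpr35+/+ libraries 3 and 5, and low in the other 6. Cyp2s1 (0.9505 of the median of the other 9), Cyp4f40 (0.921) and Cyp4f18 (0.534) were not raised in Gpr35-/- library 2.

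Markers of position along the small intestine varied in the same libraries. Apoa4, a lipid transport gene of proximal intestine, had 4998 FPKM in Gpr35-/- library 2, 4384 FPKM in Gpr35+/+ library 3 and 632 to 2352 FPKM in the other 8. Slc10a2, the bile acid transporter of distal ileum, had 26.8 and 18.5 FPKM there and 54.8 to 217 FPKM in the others. Fabp6, drawn as the other distal marker, did not set these libraries apart. It had 12360 and 10117 FPKM there, 10353 FPKM in Gpr35-/- library 5 and 17633 to 34321 FPKM in the rest. The summed proximal markers were 1010 to 5638 FPKM in Gpr35+/+ and 1393 to 4742 FPKM in Gpr35-/- ileum, 0 of 9 were listed at 0 throughout, and 0 of 7 tested had an unadjusted limma p under 0.05 between genotypes. Their part in the P450 values was not tested. Without Gpr35-/- library 2 and Gpr35+/+ library 3, an alternative added after the data were seen, the median CV was 22.4%. These libraries were left out because they were extreme for many of these genes, so a lower CV follows from the choice. In the fit without them, 0 of 26 tested members passed. The log2 change of Cyp3a44 was then -1.01 (SE 0.28) and that of Cyp2c55 -0.91 (SE 0.29), with adjusted p = 0.364 and 0.455 by limma, and that of Cyp4v3 0.45 (SE 0.19).

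Genes that work with P450 enzymes were examined as 6 lists. No member of any list passed the adjusted test in ileum or macrophages, and counts at an unadjusted p under 0.05 are given here. Of all genes, 1.81% were higher and 2.52% lower by that measure in ileum, and 4.63% and 5.88% in macrophages. Of 14 redox partners tested in each source, 0 had such a p in ileum, and 1 was higher and 2 lower in macrophages. P450 oxidoreductase, Por, had 60.97 ± 18.1 and 57.1 ± 16.0 FPKM in ileum and 233 ± 17.6 and 207 ± 13.5 FPKM in macrophages, where its log2 change was -0.17 (SE 0.060, adjusted p = 0.394 by limma). Of the regulating receptors, 1 of 23 was lower in ileum and 2 of 15 higher and 1 lower in macrophages. PXR (Nr1i2) had 52.3 ± 5.03 and 48.4 ± 3.80 FPKM in ileum, CAR (Nr1i3) 8.12 ± 4.94 and 8.67 ± 2.99 FPKM and Hnf4a 253 ± 21.5 and 269 ± 37.8 FPKM. In macrophages all 3 averaged under 0.6 FPKM in either genotype.

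The ileal receptor with the smallest p was SHP (Nr0b2), a bile acid-induced repressor of Cyp7a1, with 4.38, 0.969, 2.25, 9.81 and 3.55 FPKM in the Gpr35+/+ libraries and 0.475, 1.63, 0.634, 1.08 and 0.582 FPKM in the Gpr35-/- ones. Gpr35+/+ library 2 overlapped the Gpr35-/- range, and the log2 change was -1.53 (SE 0.44, adjusted p = 0.999 by limma). Of 37 conjugating enzymes in ileum, 2 were higher and 1 lower, beside 1.81% and 2.52% of all genes. Gsta1, a glutathione transferase, had 0.982, 1.14, 2.21, 2.05 and 2.32 FPKM and 5.29, 6.86, 3.80, 3.38 and 2.62 FPKM, without overlap. Its change was 1.11 (SE 0.26, adjusted p = 0.899 by limma). Of 24 such enzymes in macrophages, 1 was higher and 1 lower, beside 4.63% and 5.88% of all genes. Among eicosanoid and epoxide enzymes, 0 of 13 in ileum and 1 lower of 14 in macrophages had such a p, and among retinoid handling genes 0 of 19 and 1 lower of 11.

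The sterol and bile acid handling list held more in macrophages, with 9 of 20 higher and 3 lower at an unadjusted p under 0.05, beside 4.63% and 5.88% of all genes, and 0 after adjustment. They include genes of cholesterol synthesis and its control. Hmgcs1, of the mevalonate pathway, had 28.9, 23.3, 29.6, 23.6 and 27.1 FPKM in Gpr35+/+ and 37.0, 40.8, 35.1, 41.7 and 32.4 FPKM in Gpr35-/- macrophages. Its genotypes did not overlap, and the log2 change was 0.49 (SE 0.088, adjusted p = 0.208 by limma). The 3 lower genes, Slc51a, Slc51b and Fabp6, are bile acid carriers of enterocytes. Gpr35-/- libraries 2, 3 and 4 were then left out, again chosen after the data were seen. In that fit 5 of 20 genes had such a p in the higher direction and 0 in the lower. This stood beside 2.66% higher and 3.63% lower of all 11296 genes. Hmgcs1 then had a change of 0.39 (SE 0.11). In ileum 0 of 27 were higher and 2 lower, and Hmgcs1 had a change of -0.12 (SE 0.19).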

How the data were processed

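Stranded mRNA libraries were prepared from mouse ileum and cultured bone marrow macrophages, intact for Gpr35 or lacking it, and sequenced as single 50-base reads. The authors deposited FPKM values, 1 table per source with 5 libraries per genotype, on genome build GRCm38 per the submitters' processing notes. Neither the aligner nor the counter is named in the sources used here, and library depth is unknown. In ileum 27 rows whose names had become dates were left out.

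Members and gene lists were chosen with earlier results of these data known. Genes named by rule were any P450 gene past the threshold or with separate genotypes, the 12 highest in ileum and 10 highest in macrophages, the leading member of each subfamily at 1 FPKM in a group, the 6 of smallest p per source and 4 for the difference, and up to 3 per companion list. Values were tested as log2(FPKM + 0.5) with limma 3.58.1 (trend and robust, R 4.3.3) on genes reaching 0.5 FPKM in 5 or more libraries, with Benjamini-Hochberg adjustment. Such a fold change understates the change of low genes. A row at 0 throughout 1 genotype while never under 1 FPKM in the opposite genotype was set aside as missing. Tables were scaled separately and tested separately, except for the difference between sources. The fits were tested on simulated data. Alternatives were other pseudocounts, filters, scalings, library weights, a replicate block and leaving out libraries. Coordinates came from GENCODE M21 and promoters from RefSeq (GRCm38.p6), and 99.5% of names matched.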

Additional observations from a re-analysis of the deposited data

Results flagged for a closer look

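In groups of 5 libraries, 1 library was set apart where its gap to the nearest other exceeded 0.71 of the whole range, and 12 of 68 groups met this. For a single group of normally distributed values chance gives about 1 in 20. The 68 groups share the same libraries and are not independent, so the count is not a test against chance. In Gpr35-/- ileum, library 2 was the high one for 9 genes. The gap was 0.841 of the range for Cyp27a1 (26.2 against 15.1 FPKM in the nearest library), 0.804 for Cyp2c68 (42.4 against 25.2 FPKM), 0.8 for Cyp3a25 (196 against 93.8 FPKM) and 0.785 for Cyp2j6 (80.3 against 36.9 FPKM). It was 0.765 for Cyp3a13 (411 against 237 FPKM), 0.755 for Cyp2c65 (129.7 against 65.0 FPKM), 0.754 for Cyp3a11 (328 against 123 FPKM), 0.737 for Cyp4f13 (58.6 against 49.4 FPKM) and 0.727 for Cyp2c55 (85.9 against 38.4 FPKM). In Gpr35+/+ ileum, library 3 was high for Cyp3a25 with a gap of 0.765 (119.8 against 82.1 FPKM) and low for Cyp4f40 with 0.741 (30.1 against 42.9 FPKM). Gpr35-/- library 4 was high for Cyp4f40 with 0.864 (49.7 against 40.9 FPKM). Among position markers, Apoa4 had its highest values and Slc10a2 its lowest in Gpr35-/- library 2 and Gpr35+/+ library 3. Neither marker met the gap rule in these groups, and their part in the P450 values was not tested.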

How the results depend on the processing

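Under the 22 alternatives tried in each source and the 25 for the difference between sources, 0 P450 genes passed the adjusted limma test in either direction. The lowest adjusted p of a P450 gene was 0.114 for Cyp3a44 in ileum (all 20 libraries in 1 fit) and 0.0869 for Cyp4f14 in macrophages (array weights). In ileum 448 of 483 values of the named genes kept their direction, and in macrophages 221 of 238. FPKM hold no read counts, so the depth behind a low value is unknown, and most changes that turned were smaller than their standard error.

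Counts over all genes moved more. In ileum, with 2 genes higher and 3 lower as reported, the 1 FPKM filter gave 1 higher, keeping rows listed at 0 gave 4 higher and 7 lower, 1 fit of all 20 libraries gave 14 and 18, and leaving out Gpr35+/+ library 3 and Gpr35-/- library 2 gave 4 and 5. Leaving out 1 library gave 1 to 4 higher and 0 to 5 lower. In macrophages, with 3 higher and 3 lower as reported, array weights gave 59 and 69, 1 fit of all 20 libraries 8 and 5, and leaving out Gpr35-/- libraries 2, 3 and 4 gave 1 lower. Leaving out 1 library gave 2 to 12 higher and 0 to 21 lower, the highest counts without Gpr35-/- library 5. The number of P450 genes at the threshold in Gpr35-/- macrophages, 7 by the mean of that group alone, became 12 at 0.5 FPKM and 12 with each library rescaled to the same total. Without Gpr35-/- libraries 2, 3 and 4 the log2 ratio of the summed macrophage P450 level turned from 0.01 to -0.0932 and that of bile acid and oxysterol enzymes from 0.18 to -0.39. Apart from the fits with fewer libraries or other filters, the cause was not tested.

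Replicate numbers did not pair the libraries. The correlation of same-numbered libraries' deviations ran from -0.42 to 0.01 in ileum and from -0.16 to 0.27 in macrophages, and 2 of 5 macrophage numbers correlated best with their own. With a replicate block, ileum gave 1 gene higher and 2 lower, macrophages gave 3 and 3, and no P450 gene was called.

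These changes of direction occurred among named P450 genes. With array weights the ileal log2 change was -0.19 for Cyp2c65, -0.0496 for Cyp2j6, -0.26 for Cyp3a11 and -0.0634 for Cyp3a25. Without Gpr35+/+ library 3 and Gpr35-/- library 2 it was -0.0585 for Cyp2c65, -0.0812 for Cyp2j6, -0.0874 for Cyp3a11 and -0.06055 for Cyp4f40. In macrophages Cyp4f17 was -0.000301 with a pseudocount of 0.1 and Cyp2ab1 was 0.0184 after quantile normalization. Without Gpr35-/- libraries 2, 3 and 4, Cyp27a1 was -0.37, Cyp2s1 0.18, Cyp4f13 -0.10, Cyp4f17 -0.18 and Cyp4v3 -0.12. Leaving out 1 ileum library at a time gave Cyp4f16 -0.18 to 0.18, Cyp2c65 -0.20 to 0.21, Cyp2j6 -0.15 to 0.27, Cyp2u1 -0.0177 to 0.29, Cyp2b10 -0.50 to 0.24 and Cyp2d26 -0.33 to 0.00754. It gave Cyp4b1 -0.34 to 0.0529, Cyp4f13 -0.18 to 0.0296, Cyp4f40 -0.0803 to 0.0818, Cyp2s1 -0.0531 to 0.0288, Cyp3a11 -0.29 to 0.35 and Cyp3a25 -0.13 to 0.28. In macrophages the ranges were -0.0350 to 0.0515 for Cyp4f13, -0.0695 to 0.0532 for Cyp4f17 and -0.0794 to 0.0213 for Cyp2ab1. The negative ends for Cyp3a11, Cyp3a25, Cyp2j6 and Cyp2c65 came without Gpr35-/- library 2.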
